A study of Mus musculus with 16 samples.

Results

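Interferon-response genes are genes whose transcription is switched on when a cell senses interferon, and 9 of them are described here: Ifi27l2a, Ifitm3, Ifitm2, Isg15, Ifit1, Ifit3, Irf7, Bst2 and Ifi27. They were chosen by name, as the entries of the count matrix that carry these symbols, and all 9 were present among the 55487 genes listed. Of the listed genes, 41193 had at least 1 unique molecular identifier (UMI, a count of one captured mRNA molecule).

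Type I interferons bind a receptor formed by Ifnar1 and Ifnar2, and Janus kinases on that receptor pass the signal on. It reaches interferon-stimulated response elements in the promoters of target genes, whose products block viral entry, translation and release. In the central nervous system microglia and the cells of blood vessels are known to answer interferon, and a low tonic level of the response is present without infection.

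The data are single-cell RNA counts from the spinal cord of 16 mice aged 8-10 weeks, with 1 library per mouse and 2 mice in each of 8 conditions. The conditions cross genotype with time, which was uninjured (labelled Sham), or 1 d, 7 d or 14 d after a lesion of the dorsal columns at cervical segment C5. Mice labelled Rykfl/fl,GFAPcreERT2 are called cKO here, and mice labelled Ryk+/+,GFAPcreERT2 are called WT. Both genotypes carried the same tamoxifen-inducible Cre, driven by the human GFAP promoter and so aimed at astrocytes. Tamoxifen was started 5 days ahead of the operation and given on 7 days in a row. Ryk encodes a receptor for Wnt proteins. All suspensions were prepared with actinomycin D, a transcription blocker, in the buffers.

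Ryk itself was counted first, in the astrocytes of Clusters 5 and 7. Levels are given in CPM, the usual scaling of a gene's UMIs to a common total over all UMIs in a mouse's cells of that cluster or class. Ryk in WT mice was at 126 and 70.1 CPM uninjured, 103 after 1 d, 169.5 and 131 after 7 d, and 115 and 112 after 14 d. The cKO mice had 68.8 and 116 CPM uninjured, 24.0 (1 UMI) and 79.0 after 1 d, 94.0 and 126 after 7 d, and 136 and 135 after 14 d. The genotypes overlapped, with means of 118 ± 30.1 CPM (SD, 7 WT mice) and 97.3 ± 38.9 CPM (8 cKO mice). Since 3′ reads may come from mRNA that the deletion leaves in place, Ryk counts check nothing about it.

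Several libraries stood apart, and the results are given with and without them. A WT mouse at 1 d (replicate 2) had 1 cell and was left out, which left 15 mice with 208 to 1845 cells and 536263 to 9008729 UMIs each (median 3032957). The WT time point at 1 d therefore rests on 1 mouse. In 4 of the 15 mice, replicate 1 of both genotypes at 1 d and at 7 d, the median cell had 414 to 548 UMIs, against 1040.5 to 3637 in the other 11. Conditions followed the sample titles, but in 6 mice, each a replicate 2, the cells' names carry a different condition, and 5 of these are among the 15. Those 5 were cKO uninjured (named WT 7 d), WT uninjured (named cKO uninjured), WT 7 d (named WT 1 d), WT 14 d (named cKO 14 d) and cKO 14 d (named cKO 7 d). The cell table and the titles gave the same condition for every mouse. In all, 432 cells carried a barcode that another library also had, and 17937 barcodes were distinct among 18203 cells. Batch, as deposited, is the same split of the 16 mice as replicate, and the fits below leave it out unless a replicate block is named.

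The cells fell into 17 clusters named by the authors, and most marker genes were highest where those names place them. All 6 endothelial markers (such as Cldn5 and Flt1) were highest in Cluster 1, all 6 pericyte markers in Cluster 9, and all 6 microglial markers (such as P2ry12) in Cluster 6. Of 7 macrophage and antigen-presenting markers 6 were highest in Cluster 12 (immune cells), and all 4 neutrophil markers were highest in Cluster 16 (myeloid cells). Fibroblast and Schwann cell markers were all highest in the clusters of those names. Cluster 13 is labelled Unk in the cell table and is called ependymal here, since all ependymal markers were highest in it. The other exceptions were 1 of 6 oligodendrocyte, 1 of 5 oligodendrocyte precursor and 2 of 7 neuronal markers, which were highest in another cluster.

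The 9 genes were found in different cells. Endothelial cells held most of the UMIs of Isg15 (67.3% of 1965), Ifit1 (68.5% of 1265), Irf7 (61.9% of 742), Ifitm3 (57.8% of 14377) and Ifit3 (51.9% of 965). Ifi27l2a was placed otherwise, with 37.4% of 2210 UMIs in the immune and myeloid clusters, 32.0% in microglia and 4.89% in endothelial cells. Bst2 was shared between endothelial cells (43.7% of 3499) and microglia (33.3%). Ifi27 was the most spread, with 36.9% of 4087 UMIs in endothelial cells and 17.7% in oligodendrocytes, where each of the other members had at most 3.26%. These shares also follow the number of cells, so the levels that follow are in CPM, averaged over mice with at least 10 cells of the cluster. Levels in different clusters are described without a test, since the clusters were formed from the same counts.

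**Figure D1:**
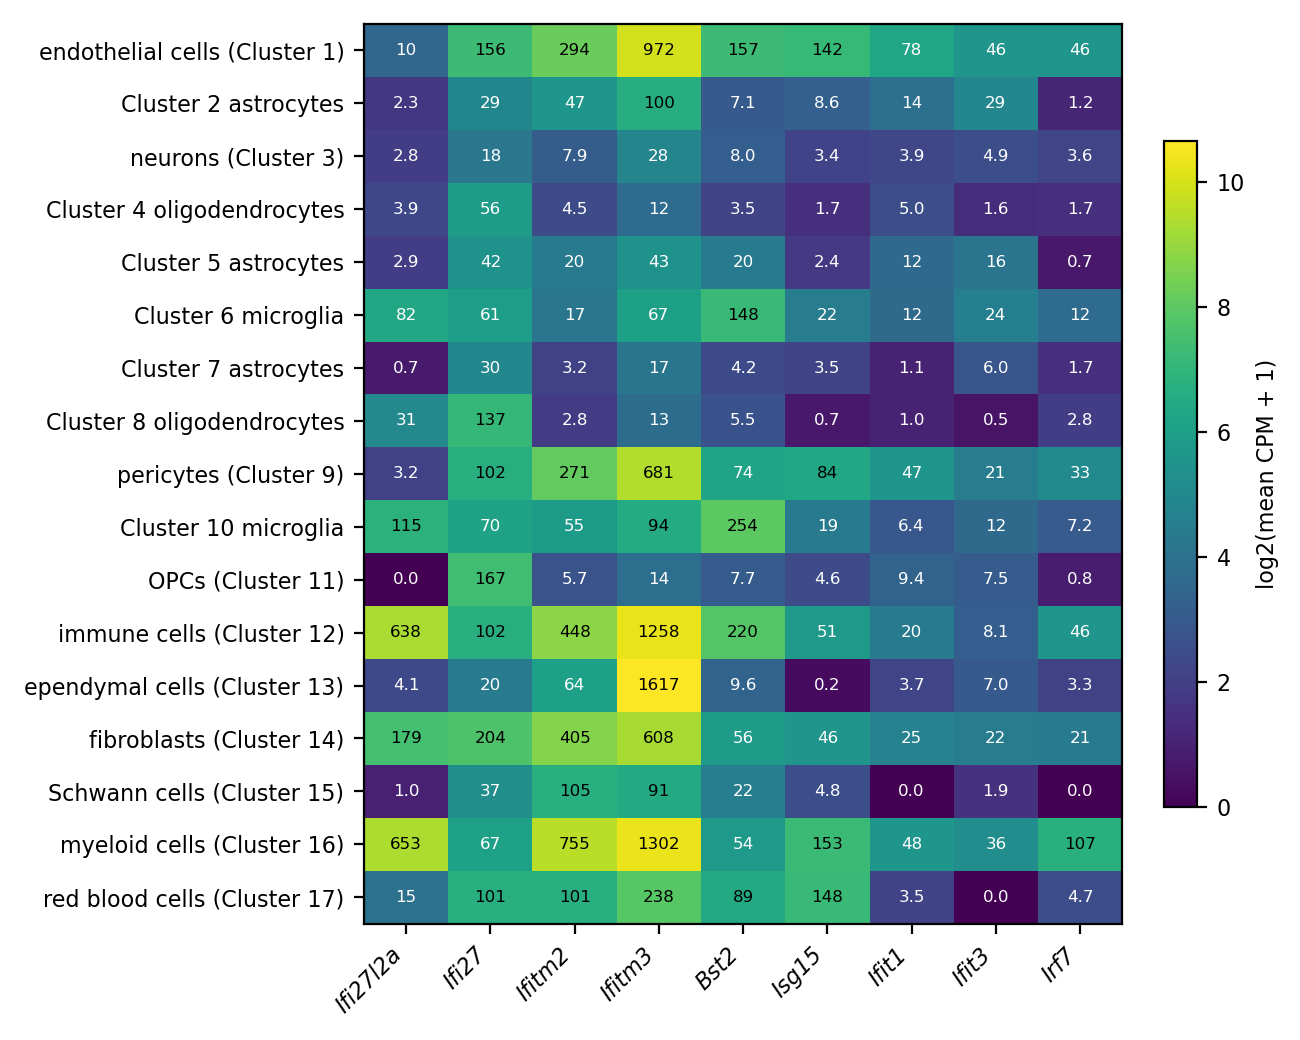
Heat map of the 9 members (horizontal) in the 17 clusters (vertical), where colour is log2 of mean CPM + 1 and the number in each cell is the mean CPM over mice with at least 10 cells of the cluster. Isg15 reached 142 CPM in endothelial cells and 22.2 in Cluster 6 microglia, whereas Ifi27l2a was at 10.4 and 82.2 CPM there.

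Irf7 is the transcription factor that amplifies the type I response by raising interferon transcription. In endothelial cells it ranged from 25.6 to 71.4 CPM over 15 mice, with a median of 47.7. Its mean was highest in myeloid cells (107 ± 146 CPM, SD, 5 mice, 20 UMIs in all), where cKO 1 d replicate 1 had 361 CPM from 2 UMIs and the median of 46.9 CPM was below the endothelial one, followed by endothelial cells (46.2 ± 12.8), immune cells (45.6 ± 57.1, 10 mice) and pericytes (33.0 ± 25.8). The spreads of these 4 overlapped, and Cluster 6 and Cluster 10 microglia were lower at 12.2 ± 13.9 and 7.24 ± 9.54 CPM. Fibroblasts had 20.5 ± 44.1 CPM, a mean that rests on cKO 1 d replicate 1 (136 CPM from 1 UMI), and no other cluster exceeded 4.72. Irf7 was higher in endothelial cells than in pericytes of the same mouse in 12 of 15 mice, and higher than in Cluster 6 in 13 of 14. A UMI of Irf7 was found in 7.88% of endothelial cells and in 0.283% of Cluster 4 oligodendrocytes, taken as the type that should lack it. Thinning took each cell with at least 500 UMIs down to 500 and left out the 2961 cells below that, and with it the shares were 1.71% of 3154 endothelial cells (of 4201) and 0.0654% of 1530 Cluster 4 cells (of 1768).

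Isg15 encodes a ubiquitin-like protein that is joined to other proteins during the response. Its endothelial level ran from 75.0 to 230.4 CPM over 15 mice, with a median of 126. The order of mean levels was myeloid cells (153 ± 147 CPM, 5 mice), red blood cells (148 ± 108, 4 mice), endothelial cells (142 ± 44.7), pericytes (83.9 ± 63.5), immune cells (51.4 ± 88.4) and fibroblasts (46.4 ± 50.9, 9 mice), and each differed from its neighbour by less than the larger SD of the pair. The immune mean rests on cKO 1 d replicate 1 (282 CPM from 10 UMIs), and no other mouse there exceeded 119 CPM. The myeloid mean includes 164 CPM in WT 1 d replicate 1 and 181 CPM in cKO 1 d replicate 1, from 1 UMI each. With at least 30 cells per mouse, myeloid cells lay below red blood cells, but a different single mouse stood for each. These were cKO 7 d replicate 2 (28.6 CPM) and cKO 1 d replicate 2 (59.6 CPM). Microglia were below all the clusters listed, with 22.2 ± 17.9 CPM in Cluster 6 and 19.2 ± 21.0 in Cluster 10 (14 mice each). No other cluster exceeded 8.63. Every one of 14 mice had more Isg15 in endothelial cells than in Cluster 6, and 14 of 15 had more than in pericytes. Endothelial cells with a UMI made up 15.3% (3.93% after thinning), against 0.509% (0.261%) of Cluster 4 oligodendrocytes. The median depths of the 2 types were 890 and 1115 UMIs, so the endothelial share lay above this background at both depths.

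Ifit1 and Ifit3 encode cytosolic proteins with tetratricopeptide repeats that bind viral RNA or the proteins around it. Ifit1 ran from 43.9 to 149.6 CPM in endothelial cells (median 74.5), and its mean was higher there (78.5 ± 31.3, 15 mice) than in pericytes (47.3 ± 38.7), fibroblasts (25.3 ± 26.4) or Cluster 6 (11.997 ± 17.96). Ifit3 ran from 23.04 to 74.3 CPM in endothelial cells (median 44.8), with a mean of 46.4 ± 16.02, against 23.6 ± 27.0 in Cluster 6 and 21.1 ± 17.98 in pericytes. Within mice, endothelial cells exceeded pericytes in 13 of 15 for Ifit1 and in 14 of 15 for Ifit3. The myeloid means (48.1 ± 77.9 and 36.1 ± 80.8 CPM) rest on 5 UMIs and 1 UMI, and the Ifit3 mean in Cluster 2 astrocytes (29.3 ± 63.5) on 12 UMIs. Ifit1 was found in 9.93% of endothelial cells and 0.509% of Cluster 4 (2.25% and 0.196% thinned), and Ifit3 in 7.19% and 0.452% (1.93% and 0.0654%).

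Bst2 encodes tetherin, which holds budding virions at the cell surface, and it was the member that microglia and endothelial cells shared most evenly. In Cluster 10 it ran from 103 to 562 CPM over 14 mice (median 194), in Cluster 6 from 63.2 to 251 (median 130.4), and in endothelial cells from 104 to 253 (median 149). The means were 254 ± 151 CPM in Cluster 10, 220.3 ± 110.5 in immune cells, 157 ± 42.4 in endothelial cells and 148 ± 60.4 in Cluster 6, and neighbours in this order did not differ beyond their spread. With at least 30 cells per mouse, and also after thinning, Cluster 10 lay below immune cells. Red blood cells (88.6 ± 96.6), pericytes (73.7 ± 31.5), fibroblasts (56.2 ± 54.8) and myeloid cells (53.7 ± 74.8) came next, and no other cluster exceeded 22.3 CPM. Within mice Cluster 10 exceeded Cluster 6 in 13 of 14, while endothelial cells exceeded Cluster 6 in 8 of 14. A UMI was found in 34.4% of Cluster 10 cells, 23.3% of Cluster 6 cells and 20.4% of endothelial cells, and in 1.02% of Cluster 4 oligodendrocytes. After thinning the shares were 8.89%, 7.48%, 6.18% and 0.523%. Median depths were 1120.5 UMIs in Cluster 10 and 780.5 in Cluster 6.

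Ifitm2 and Ifitm3 encode membrane proteins that stop viruses from fusing with the cell. Ifitm3 was highest in ependymal cells, where it ran from 233 to 3651 CPM over 10 mice with a median of 1598. Its means were 1617 ± 1076 CPM in ependymal cells, 1302 ± 731 in myeloid cells, 1258.5 ± 519 in immune cells, 972 ± 394 in endothelial cells, 681 ± 390.5 in pericytes and 608 ± 319 in fibroblasts, each differing from the next by less than the larger SD of the pair. Microglia were far lower, at 94.1 ± 57.6 CPM in Cluster 10 and 66.5 ± 63.8 in Cluster 6. Ifitm2 followed another order, with 755 ± 370.3 CPM in myeloid cells, 448 ± 208 in immune cells, 405 ± 162 in fibroblasts, 294 ± 162 in endothelial cells and 271 ± 118 in pericytes, and 63.8 ± 62.0 in ependymal cells. Cluster 10 had 55.3 ± 51.1 CPM of Ifitm2 and Cluster 6 had 17.4 ± 24.0. The ependymal cells thus separated the pair: they exceeded the endothelial cells of the same mouse in 8 of 10 mice for Ifitm3 and in 0 of 10 for Ifitm2. Of ependymal cells 49.4% had an Ifitm3 UMI (31.4% thinned), of endothelial cells 48.2% (25.8%) and of Cluster 4 oligodendrocytes 2.38% (0.458%). The median ependymal cell had 1707 UMIs.

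Ifi27 and Ifi27l2a encode small hydrophobic proteins of one family, found in mitochondrial and nuclear membranes. Ifi27l2a was at 653 ± 313 CPM in myeloid cells (5 mice) and 638 ± 384 in immune cells (10 mice), which overlapped, and in the 5 mice with both the immune mean was 826 ± 439.8 CPM. It was lower in fibroblasts (179 ± 289), Cluster 10 (115 ± 63.7) and Cluster 6 (82.2 ± 64.0). The fibroblast mean rests on WT 14 d replicate 1 (920.1 CPM), and the medians were 92.5 CPM in fibroblasts and 109 in Cluster 10. Endothelial cells had 10.4 ± 6.27 CPM, Cluster 4 oligodendrocytes 3.92 ± 7.70, and the oligodendrocyte precursor cells (OPCs) of 14 mice had 0 UMIs. Immune cells exceeded Cluster 10 in 9 of 10 mice. Ifi27 was highest in fibroblasts (204 ± 118 CPM), followed by OPCs (167 ± 118), endothelial cells (156 ± 47.0) and Cluster 8 oligodendrocytes (137 ± 85.0), and neighbours did not differ beyond their spread. After thinning, fibroblasts lay below OPCs. In the oligodendrocyte line both genes separated the clusters: in 13 of 14 mice Cluster 8 exceeded Cluster 4 for Ifi27 (137 ± 85.0 against 54.9 ± 27.6 CPM) and for Ifi27l2a (30.9 ± 23.6 against 4.20 ± 7.92). Neurons had the lowest mean of Ifi27 (17.7 ± 14.3 CPM), with a UMI in 4.67% of cells (0.779% thinned) at a median depth of 1848 UMIs, against 21.4% (5.61%) of endothelial cells. Ependymal cells, at 0 to 52.7 CPM over mice with at least 10 cells, overlapped with neurons.

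The pathway's other genes were read from a list of 103 genes, of which 100 were in the count matrix and 96 had a UMI. The interferon genes on the list were almost absent: all 6 had under 10 UMIs and 4 had 0, while Ifng had 3 and Ifna4 had 1. Interferon genes not on the list were not read. The type I receptor chains Ifnar1 (227 CPM) and Ifnar2 (229.5 CPM) were highest in endothelial cells, whereas the interferon-gamma receptor chains Ifngr1 (388 CPM) and Ifngr2 (179.6 CPM) were highest in Cluster 6. The transcription factor genes Stat2 (80.9 CPM) and Irf9 (67.2), and the feedback inhibitor Usp18 (43.6), were also highest in endothelial cells. Irf8, a factor of the myeloid lineage, was highest in Cluster 10 (386 CPM), and the RNA sensor Tlr7 in Cluster 6 (139 CPM). These are levels over all mice, described without a test.

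Some cells held UMIs of several core response genes at once. Cells with UMIs of at least 3 of Isg15, Ifit1, Ifit3 and Irf7 were counted, a rule chosen after the data were seen. They were 163 of 4201 endothelial cells (3.88%, exact Clopper-Pearson 95% interval 3.32% to 4.51%), in 14 mice, and 13 of 2128 microglia (0.611%, interval 0.326% to 1.04%), in 6 mice. The share was 3.37% of 267 fibroblasts (interval 1.55% to 6.30%), 2.39% of 836 pericytes, 2.08% of 288 immune cells and 1.68% of 119 myeloid cells. It was 0.282% of 2486 neurons and 0.100% of 3983 astrocytes. In oligodendrocytes 0 of 2660 cells met the rule, at a median of 1066 UMIs, which says nothing of cells too shallow to meet it. Since the rule picks cells by these 4 genes, their shares in the picked cells follow in part from the rule, and genes outside it are given beside them. The 163 endothelial cells held 41.3% of the Isg15, 52.1% of the Ifit1 and 61.1% of the Ifit3 UMIs of their cluster, and of the antiviral genes outside the rule 51.7% of the Ifit2, 35.0% of the Oasl2 and 41.5% of the Rsad2 UMIs, with 14.4% of all UMIs. Of members outside the rule they held 24.2% of the Bst2, 18.2% of the Ifitm3 and 15.8% of the Ifi27 UMIs. They were also deep, with a median of 8510 UMIs against 890 in the cluster, and the part of depth in the rule was not tested. By time they were 30 of 1023 endothelial cells uninjured, 10 of 1113 at 1 d, 42 of 1197 at 7 d and 81 of 868 at 14 d. Depth differed by time as well: the 4 shallow libraries, at 1 d and 7 d, had endothelial medians of 376 to 408 UMIs and gave 1, 1, 0 and 2 of these cells, whereas the mice at 14 d had medians of 2179.5 to 6841 UMIs. Its part in the counts by time was not tested. Intervals cover counting error of the pooled cells only, and not the spread between mice. Per mouse the endothelial share ran from 0% (WT 7 d replicate 1) to 13.9% (cKO 14 d replicate 1). The microglial share ran from 0% to 5.94% (WT 7 d replicate 2), so the shares of single mice overlapped.

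The 13 microglial cells are described in the same way. They carried 45.0% of the 140 Isg15 UMIs, 82.0% of the 89 Ifit1 UMIs and 75.4% of the 167 Ifit3 UMIs, which the rule selects for. Of genes outside the rule they carried 69.4% of the 134 Ifit2, 42.3% of the 97 Oasl2, 67.3% of the 55 Rsad2, 16.1% of the 416 Ifitm3 and 5.92% of the 1166 Bst2 UMIs. These cells held 1.71% of all UMIs of Clusters 6 and 10, and their median depth was 11636 UMIs against 978.5. Of the 13 cells 6 came from 1 mouse, WT 7 d replicate 2. By time they were 0 of 203 microglia uninjured, 1 of 388 at 1 d, 9 of 990 at 7 d and 3 of 547 at 14 d. Uninjured microglia were the fewest and those at 7 d the most, so no difference between times is read from these counts. The endothelial marker Cldn5 had 0 UMIs in 11 of them, 1 in another and 15 in the last.

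In endothelial cells, co-detection was read in the 3154 of 4201 cells with at least 500 UMIs, thinned to 500. Ifit1 was found in 9.68% of the 124 cells with Isg15 and in 1.95% of the 3030 cells without it. Ifit3 was found in 5.65% and 1.78% of the same cells and Irf7 in 3.23% and 1.65% (4 cells with both). Irf7 was found in 1.64% of the 61 cells with Ifit3 (1 cell) and in 1.71% of those without. These shares pool the cells of all mice and were not tested.

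The comparison with uninjured mice asks in which cells, and when, these genes differed after the lesion. In microglia (Clusters 6 and 10 together) Ifitm3 was higher at 1 d than in uninjured mice and lower again at 14 d, and Isg15 was seen in every injured mouse and in no uninjured one. Counts here are CPM scaled by edgeR's trimmed mean of M-values. A class enters with each mouse that has at least 10 cells of it, and all p-values rest on mice as replicates. Uninjured microglia came from 3 mice, those at 1 d from 3, and those at 7 d and 14 d from 4 each.

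Ifitm3 in microglia was at 19.9 and 26.6 CPM in the uninjured WT mice and at 25.7 in the cKO mouse (5, 3 and 2 UMIs). After 1 d the WT mouse had 202 CPM and the cKO mice 89.8 and 163. WT mice had 156 and 87.3 after 7 d and 81.9 and 39.7 after 14 d, where cKO mice had 120.7 and 42.1, and 27.4 and 19.1. All 3 mice at 1 d lay above all uninjured mice and above all mice at 14 d, and the 14 d and uninjured mice overlapped. The means were 24.0 ± 3.63 CPM uninjured, 152 ± 57.0 at 1 d, 102 ± 48.6 at 7 d and 42.0 ± 27.9 at 14 d. Ifitm3 rose at 1 d by 3.17 on the log2 scale (SE 0.61, higher in 3 of 3 mice, edgeR adjusted p = 0.0137).

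Isg15 had 0 UMIs in the microglia of all 3 uninjured mice, out of 477668 UMIs. After 1 d the WT mouse had 53.9 CPM and the cKO mice 39.9 and 38.0. WT mice had 17.3 and 25.9 CPM after 7 d and 26.1 and 20.2 after 14 d, where cKO mice had 36.5 and 11.4, and 13.1 and 10.0. It was thus seen in all 11 injured mice and in no uninjured one, and the 3 mice at 1 d lay above every mouse at 7 d and at 14 d. Isg15 pooled over mice was 6.01-fold the floor of 3 UMIs over the uninjured group at 1 d (22 of 582766 UMIs). It was 3.30-fold that floor at 7 d (41 of 1978026) and 2.49-fold at 14 d (77 of 4916989). The floor allows for counting error in the uninjured group only. Counting error in the injured mice and the spread between mice are not in these ratios. Without the 13 cells described above these ratios were 4.77-fold, 1.93-fold and 1.21-fold. The edgeR test passed at 1 d (adjusted p = 0.0194) and not at 7 d (adjusted p = 0.103) or 14 d (adjusted p = 0.0772). However, a gene at 0 in all uninjured mice enters the fit only through the injured ones. The ratios are therefore given in place of a rise, and no support is drawn from the test. Ifit1 also had 0 UMIs in the uninjured mice but was too low to enter the fit, and its 10 UMIs at 1 d were 17.2 CPM when pooled. Without the 1 cell at 1 d that met the rule above 3 UMIs were left (5.28 CPM, below the floor of 6.28 CPM), so no ratio is given. Irf7, also too low to enter, had means of 2.95 CPM uninjured (1 UMI) and 16.03, 17.7 and 5.46 CPM at 1 d, 7 d and 14 d.

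Ifitm2 was at 3.97 and 0 CPM in the uninjured WT mice and at 12.8 in the cKO mouse, and after 1 d at 53.9 in the WT and 29.9 and 89.6 in the cKO mice. WT mice had 104 and 30.7 CPM after 7 d and 37.2 and 9.76 after 14 d, where cKO mice had 42.1 and 14.8, and 32.4 and 13.6. The values at 1 d lay above the uninjured ones without overlap, but the difference of 3.91 on the log2 scale did not pass (adjusted p = 0.0787; DESeq2 3.88, adjusted p = 0.0326). Ifi27l2a had its highest mean at 7 d, 151 ± 55.9 CPM (85.2 to 210.5, 4 mice) against 45.7 ± 29.6 uninjured (25.7 to 79.7), without overlap and without passing (log2 1.87, adjusted p = 0.162; DESeq2 1.83, adjusted p = 0.0414).

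Bst2 was at 207 and 186 CPM in the uninjured WT mice and at 128 in the cKO mouse, and after 1 d at 269 in the WT and 139.8 and 445 in the cKO mice. WT mice had 321 and 113 CPM after 7 d and 186 and 93.0 after 14 d, where cKO mice had 269 and 111, and 127 and 122. The groups overlapped at every time, and the log2 difference at 1 d was 0.81 (adjusted p = 0.380). Ifit3 was at 2.65 CPM on average uninjured and at 23.5, 33.1 and 13.5 at 1 d, 7 d and 14 d, with a log2 difference of 3.05 at 1 d that did not pass (adjusted p = 0.217). Ifi27 differed least, with 66.9, 56.1, 66.3 and 78.8 CPM and a log2 difference of 0.03 at 1 d (adjusted p = 0.988).

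**Figure D2:**
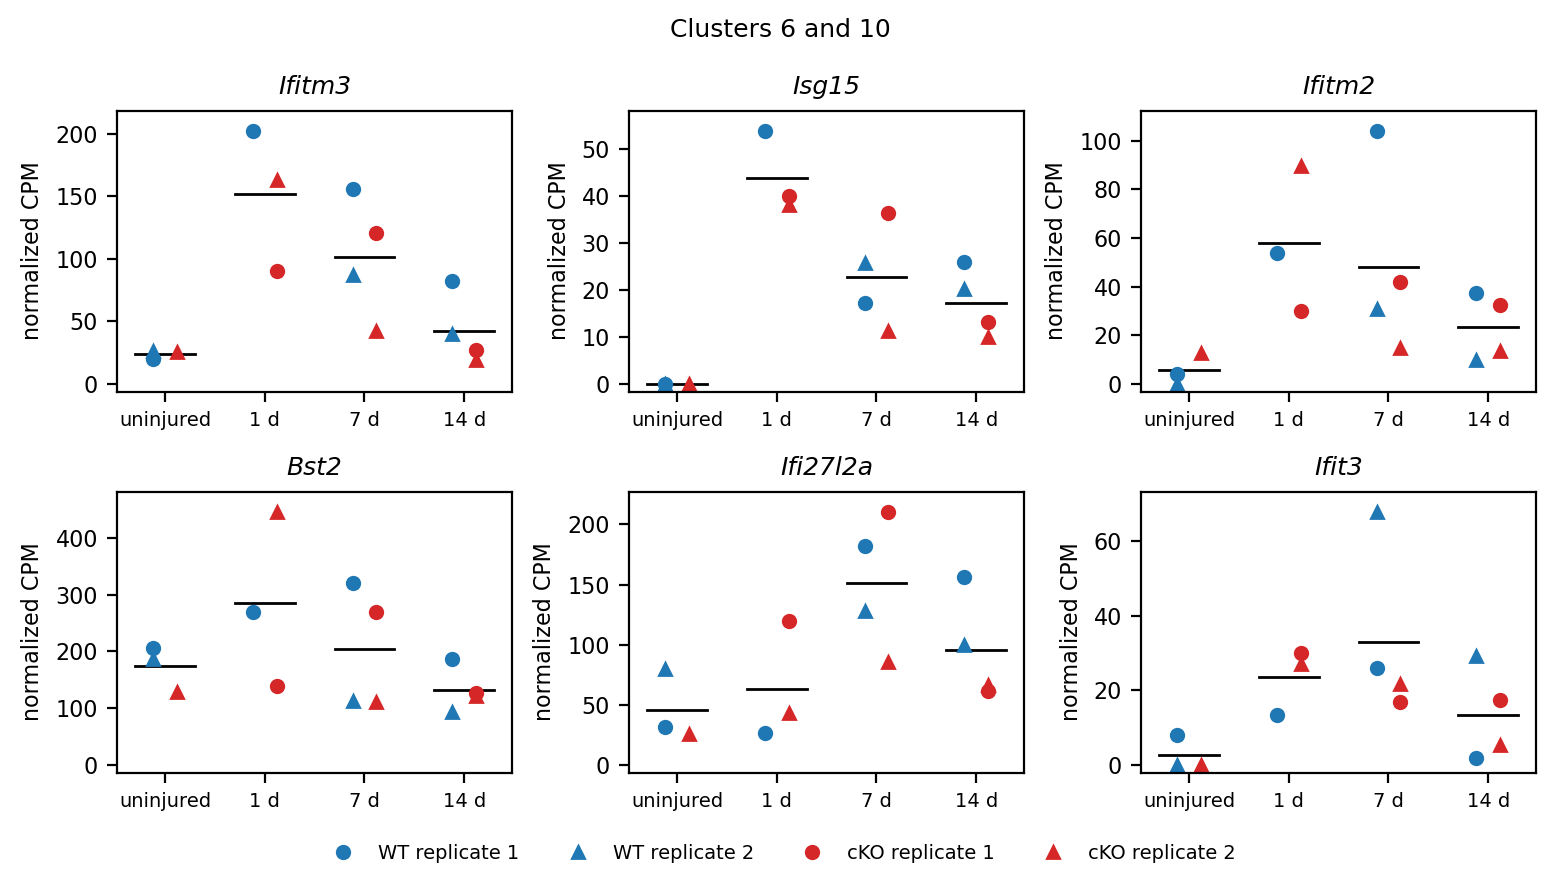
CPM of 6 members in the microglia of Clusters 6 and 10 (vertical axis) for each mouse by time (horizontal axis), with WT in blue, cKO in red, replicate 1 as circles, replicate 2 as triangles and the mean as a black line. Isg15 was at 0 in all 3 uninjured mice and between 38.0 and 53.9 CPM at 1 d, and Ifitm3 was between 19.9 and 26.6 CPM uninjured and between 89.8 and 202 at 1 d.

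Of the 21 tests of members in microglia over the 3 times, 2 passed with edgeR, both upward, 11 had an unadjusted p under 0.05, and 4 passed with DESeq2. Over all genes tested the shares were 1.47%, 13.3% and 2.75%, and since the members were chosen with earlier results of these data known, the comparison is a description from which no support is drawn. At 1 d alone 2 of 7 members passed with edgeR, 4 had an unadjusted p under 0.05 and 2 passed with DESeq2, against 2.3%, 18.2% and 4.52% of the 7348 genes. The median log2 difference of the 7 members tested was 3.05 at 1 d, 2.28 at 7 d and 1.17 at 14 d, against −0.02, 0.01 and 0.01 over all genes. The 3 comparisons share the same uninjured mice, and a member that is near 0 in 1 group enters the fit only through the others, so no support is drawn from these counts and medians.

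Both calls at 1 d depended on single mice and on the fit. With 8 group means in place of time and genotype neither passed (adjusted p = 0.0817 for Ifitm3 and 0.0819 for Isg15). DESeq2 called Ifitm3 (3.15, adjusted p = 8.8e-04) and gave Isg15 (5.15) no adjusted p, so it was not called. With the replicate block both passed, and so did Ifitm2 (4.11, adjusted p = 0.0434). Without WT 1 d replicate 1 the adjusted p was 0.0549 for Ifitm3 and 0.0672 for Isg15, without WT uninjured replicate 1 it was 0.0819 and 0.0947, and without cKO 1 d replicate 2 it was 0.0632 and 0.0622. Without the 4 shallow libraries both passed (Ifitm3 3.80, adjusted p = 0.00959; Isg15 adjusted p = 0.0431), but this left 1 mouse at 1 d, whose spread was taken from the other groups, so no support is drawn from it. Without the mice whose cell names differ Ifitm3 passed (3.64, adjusted p = 0.0355) and Isg15 did not (adjusted p = 0.0898), with 1 uninjured mouse left. When mice were grouped by cell name neither passed (Ifitm3 2.66, adjusted p = 0.361; Isg15 adjusted p = 0.271), while both differences stayed above 0. The count of members passing after injury was 0 without each of the 3 mice named above, and 3 without WT 14 d replicate 2, cKO 7 d replicate 1 or cKO 7 d replicate 2.

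Other measures moved in microglia as well. The endothelial markers, 6 in all with none at 0, summed to 84.2 ± 46.8 CPM uninjured, 283 ± 85.2 at 1 d, 133 ± 61.8 at 7 d and 145 ± 78.0 at 14 d, with Flt1 the most abundant (768 UMIs). Macrophage markers, 7 in all, summed to 915 ± 248, 1221 ± 536, 3517 ± 1397 and 3007 ± 544 CPM, led by Lyz2 (15432 UMIs), and the microglial markers P2ry12 (log2 −1.91, adjusted p = 0.00304) and Siglech (−1.40, adjusted p = 0.0440) fell at 1 d. Cluster 10 made up 32.7% ± 16.1 of the microglia in uninjured mice and 36.4% ± 16.7, 37.3% ± 9.09 and 54.6% ± 7.79 at 1 d, 7 d and 14 d. The part of these in the members' differences was not tested. Without the 13 cells described above, pooled Isg15 went from 37.8 to 29.9 CPM at 1 d, from 20.7 to 12.1 at 7 d and from 15.7 to 7.59 at 14 d, beside the floor of 6.28 CPM. Pooled Ifitm3 at 1 d went from 144 to 141 CPM, pooled Ifit1 at 7 d went from 16.7 to 1.58 CPM and Ifit3 from 35.4 to 8.43. Pooled Ifit3 also went from 24.0 to 8.80 CPM at 1 d and from 16.3 to 3.49 at 14 d.

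Between 1 d and 14 d, Ifitm3 was the member that passed the test in microglia. There Ifitm3 fell by 2.19 on the log2 scale (SE 0.40, lower in 4 of 4 mice, adjusted p = 0.00423). Isg15 (log2 −1.50, adjusted p = 0.0975), Bst2 (−1.23, adjusted p = 0.0802) and Ifitm2 (−1.62, adjusted p = 0.110) lay in the same direction without passing. Of 7 members tested there 1 passed with edgeR, 4 had an unadjusted p under 0.05 and 1 passed with DESeq2, against 4.68%, 21.8% and 6.34% of all genes, and the median difference was −1.23 for the members and 0.06 for all genes. The Ifitm3 call was lost without cKO 1 d replicate 2 (log2 −1.82, adjusted p = 0.0972), without the mice whose cell names differ (−1.83, adjusted p = 0.0552) and when mice were grouped by cell name (−1.42, adjusted p = 0.543). The same contrast called the endothelial marker Ly6c1 (−4.14, adjusted p = 0.00475) and the haemoglobin genes Hbb-bt (−6.10), Hba-a2 (−7.76), Hbb-bs (−9.03) and Hba-a1 (−9.79) as lower, and Lyz2 (2.09, adjusted p = 0.0247) and Csf3r (1.44, adjusted p = 0.00668) as higher. Their part in the Ifitm3 difference was not tested.

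In Cluster 2 astrocytes Ifitm3 passed the test for 14 d against 1 d, but a single mouse stood for 1 d, so the values are a description and no support is drawn from the test. It was at 214 CPM (26 UMIs) in cKO 1 d replicate 2, the only mouse with enough cells at 1 d, and at 51.1, 8.46, 14.7 and 24.5 CPM at 14 d. Uninjured mice had 61.8, 35.3 and 29.7 CPM, and mice at 7 d had 192.5 (3 UMIs), 21.6 and 38.8. The mouse at 1 d lay above all of them, and the test takes its spread from the other groups. The log2 difference was −3.46 (SE 0.83, lower in 4 of 4 mice, adjusted p = 0.00806). It no longer passed without WT 14 d replicate 2 (−3.10), cKO 14 d replicate 1 (−3.38) or cKO 14 d replicate 2 (−3.70), and without the mice whose cell names differ it was −4.15 and did not pass. Here 1 of 2 members passed with edgeR, 1 had an unadjusted p under 0.05 and 0 passed with DESeq2, against 0.504%, 5.48% and 0.084% of all genes. The same contrast in this cluster also called the neutrophil markers S100a8 (−4.95) and S100a9 (−5.14), the endothelial marker Cldn5 (−4.08) and the haemoglobin genes Hbb-bs (−4.14), Hba-a1 (−4.47) and Hba-a2 (−4.90), whose part was not tested. Summed neutrophil markers were at 28.9 ± 50.03 CPM uninjured, 307 at 1 d, 71.0 ± 123 at 7 d and 10.3 ± 14.1 at 14 d, and summed endothelial markers at 1875 ± 3119, 487, 4560 ± 7613 and 192 ± 129.8.

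Over all classes tested, 2 of 30 member tests between 14 d and 1 d passed with edgeR, 10 had an unadjusted p under 0.05 and 2 passed with DESeq2, and all of these were downward in the fit. Among the 10 was Ifitm3 in neurons (fitted log2 −2.28). Its levels per mouse, given below, were 0 in all but 1 mouse at 1 d, so no fall is read from that sign. The call in Cluster 2 rests on 1 mouse at 1 d and supports nothing, which leaves the call in microglia. With the replicate block Ifitm2 was also called in microglia (−1.80, adjusted p = 0.0423) and in endothelial cells (−1.61, adjusted p = 0.0406). Over all genes the shares were 0.776%, 10.1% and 1.41%. The count was 0 without cKO 1 d replicate 2, 1 without any of WT 14 d replicate 2, cKO 14 d replicate 1 and cKO 14 d replicate 2, and 5 without WT 14 d replicate 1. With DESeq2 the second call was Ifitm2 in endothelial cells, described next.

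In endothelial cells no member was called against uninjured mice. Of 24 tests of members over the 3 times 0 passed with edgeR, 5 had an unadjusted p under 0.05 (1 higher, 4 lower) and 0 passed with DESeq2, where 0.0181%, 8.98% and 0.163% of all genes did. The core genes were already present in uninjured vessels: Isg15 was at 168 ± 42.8 CPM uninjured (4 mice), 160.1 ± 56.4 at 1 d (3 mice), 147 ± 56.8 at 7 d and 117 ± 36.6 at 14 d (4 mice each). Ifit1 was at 64.3 ± 16.8, 75.3 ± 12.6, 85.1 ± 36.5 and 93.8 ± 36.1 CPM, and Ifit3 at 43.4, 50.2, 50.2 and 47.6. For these 3 genes the times overlapped within their spread.

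Bst2 was the member with the lowest unadjusted p after injury in endothelial cells. It was at 166 and 280.3 CPM in uninjured WT and 251 and 237 in uninjured cKO mice, and after 1 d at 155 in the WT and 149 and 245 in the cKO mice. WT mice had 168 and 98.9 CPM after 7 d and 135 and 104 after 14 d, where cKO mice had 127 and 125, and 137 and 108. The 14 d mice lay below all uninjured mice without overlap. The log2 difference was −0.94 (unadjusted p = 7.3e-04, adjusted p = 0.420), and without WT uninjured replicate 1 it was −1.09 and passed (adjusted p = 0.0484), which made the count 1.

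Irf7 lay between 29.7 and 49.7 CPM at 1 d and between 31.9 and 51.6 at 14 d in endothelial cells, below the 55.9 to 69.2 CPM of the 4 uninjured mice. Neither difference passed (log2 −0.82, adjusted p = 0.844 at 1 d; −0.65, adjusted p = 0.465 at 14 d).

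Ifitm2 stood out at 1 d in endothelial cells. It was at 188 and 320.0 CPM in uninjured WT and 289 and 331 in uninjured cKO mice, and after 1 d at 596 in the WT and 470.5 and 743 in the cKO mice. WT mice had 342 and 121 CPM after 7 d and 308 and 158 after 14 d, where cKO mice had 279 and 150.4, and 179 and 159. The mice at 1 d lay above all others, the uninjured ones included. The log2 difference was 1.12 against uninjured (unadjusted p = 0.00537, adjusted p = 0.683), and 14 d against 1 d gave −1.62 (SE 0.35, lower in 4 of 4 mice, adjusted p = 0.0555; DESeq2 −1.62, adjusted p = 0.00297). Ifitm3 showed means of 1165 ± 249, 1487 ± 411, 795 ± 339 and 754 ± 466 CPM, and its difference between 14 d and 1 d was −1.06 (adjusted p = 0.256).

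**Figure D3:**
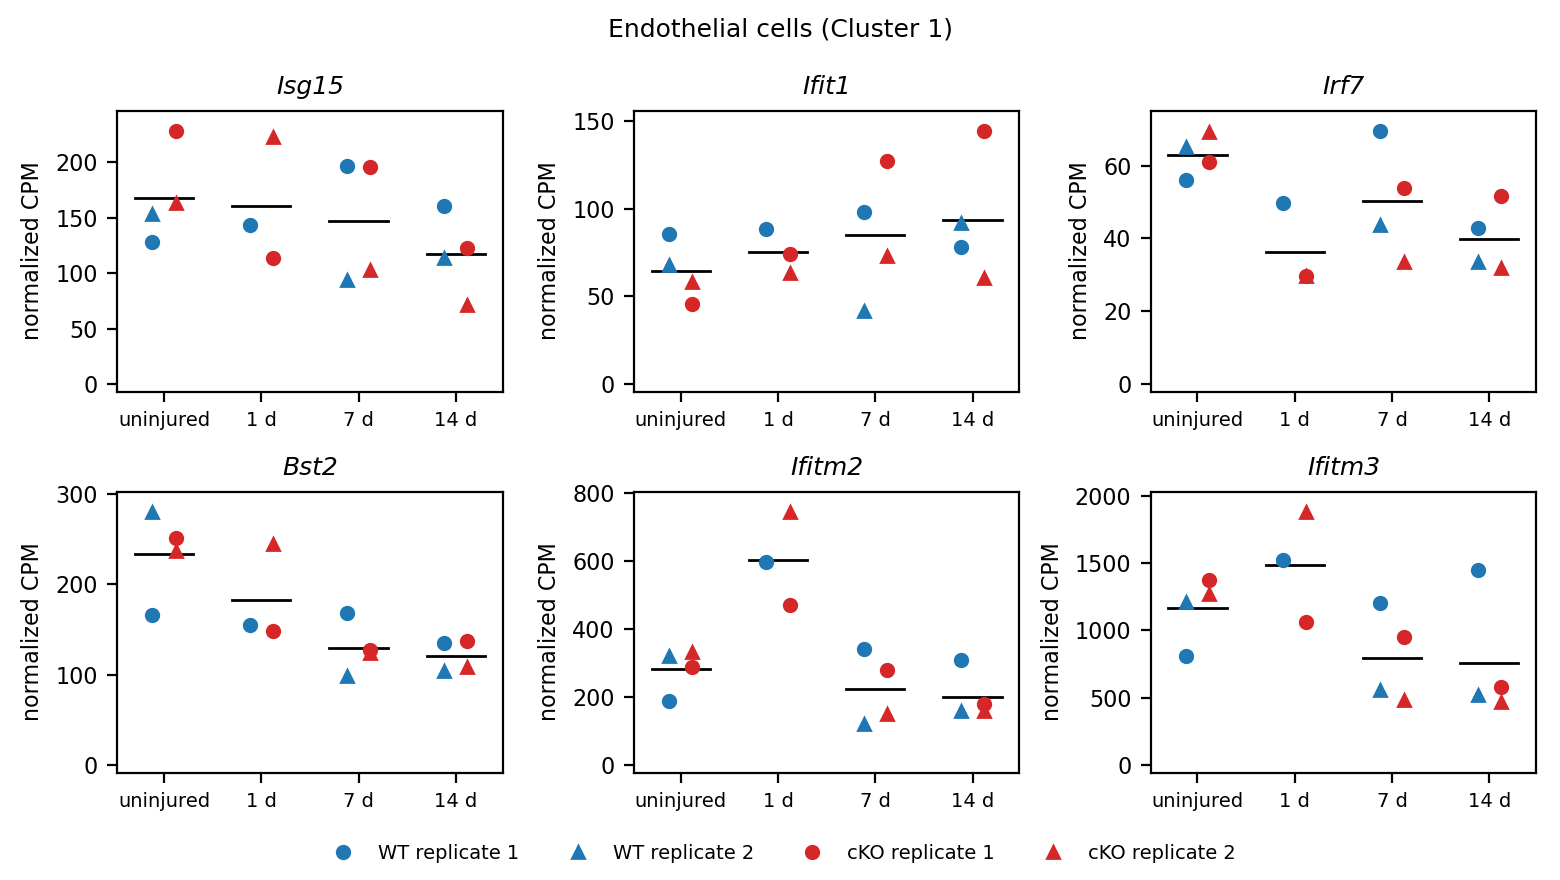
CPM of 6 members in endothelial cells (vertical axis) for each mouse by time (horizontal axis), with WT in blue, cKO in red, replicate 1 as circles, replicate 2 as triangles and the mean as a black line. Ifitm2 lay between 470.5 and 743 CPM at 1 d and at most at 342 in any other mouse, and Bst2 at 14 d lay at or below 137 CPM against 166 or more in uninjured mice.

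In pericytes Ifitm3 had the lowest unadjusted p at 1 d. It had means of 606 ± 237 CPM uninjured, 1523 ± 592 at 1 d, 754 ± 369 at 7 d and 577 ± 363 at 14 d, and the 3 mice at 1 d (1079 to 2195 CPM) lay above the 4 uninjured ones (287 to 818). The log2 difference of 1.40 did not pass (unadjusted p = 0.00604, adjusted p = 1.00). The other 5 members tested had log2 differences at 1 d of 0.81 for Ifitm2, 0.60 for Ifi27, 0.49 for Isg15, 0.24 for Bst2 and −0.82 for Ifit1. Of 18 tests of members in pericytes 0 passed with edgeR, 1 had an unadjusted p under 0.05 and 0 passed with DESeq2, against 0%, 3.88% and 0% of all genes.

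Astrocytes of Clusters 5 and 7 gave few counts of these genes. Only Ifitm3 and Ifi27 in Cluster 5 (log2 1.92 and 0.89 at 1 d, adjusted p = 0.880 for both) and Ifi27 in Cluster 7 (1.15, adjusted p = 0.805) entered the fits. Of 9 tests of members after injury 0 passed with edgeR, 0 had an unadjusted p under 0.05 and 0 passed with DESeq2, against 0.0729%, 5.82% and 0.189% of all genes. In the other 5 classes (Cluster 2 astrocytes, neurons, Cluster 4 and Cluster 8 oligodendrocytes and OPCs) 0 of 18 tests passed with edgeR, 2 had an unadjusted p under 0.05, both upward at 1 d in the fit, and 0 passed with DESeq2, against 0.117%, 6.78% and 0.244%. The 2 were Ifitm3 in neurons (fitted log2 1.40) and a member in Cluster 2 astrocytes, where 1 mouse stood for 1 d. In neurons the levels per mouse, given below, were 0 in all but 1 mouse at 1 d. No direction is read from these fitted signs. Immune and myeloid cells did not have at least 2 uninjured mice with 10 cells, which each fit required, so they were not tested over time, 14 d against 1 d included.

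The comparison of genotypes asks whether deleting Ryk in astrocytes changed these genes in any cell type. No member was called: of 30 tests over all classes 0 passed with edgeR, 2 had an unadjusted p under 0.05, both lower in cKO, and 0 passed with DESeq2, against 0.00183%, 1.81% and 0% of all genes. The 2 were Ifitm3 in microglia (log2 −0.82, unadjusted p = 0.0132, adjusted p = 1.00) and Ifitm3 in neurons (−1.89, unadjusted p = 1.2e-04, adjusted p = 0.422). In microglia all 7 members tested were below 0, with a median of −0.50 against −0.00 over all genes, from −0.12 for Bst2 to −0.88 for Ifit3. In injured mice alone the difference of Ifitm3 in neurons was −1.82 and passed (adjusted p = 0.0230). Over all times it was −1.98 without the mice whose cell names differ (adjusted p = 0.127), −1.08 when mice were grouped by cell name (adjusted p = 1.00) and −2.29 without the shallow libraries (adjusted p = 0.0509). In injured mice without those whose cell names differ it was too low to enter the fit, and 0 members passed.

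Neuronal Ifitm3 rested on uneven counts. WT mice had 97.9 and 46.0 CPM uninjured, 0 after 1 d, 0 and 55.0 after 7 d, and 65.8 and 31.6 after 14 d. The cKO mice had 11.2 and 32.3 CPM uninjured, 0 and 68.9 after 1 d, 55.2 (2 UMIs) and 8.48 after 7 d, and 9.87 and 8.31 after 14 d. The genotypes did not overlap at 14 d or uninjured, and overlapped at 1 d and 7 d.

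The injury by genotype interaction asks whether the difference after injury was another one in cKO mice. Of 39 tests of members in the classes where all 8 conditions had a mouse 0 passed with edgeR, 3 had an unadjusted p under 0.05 and 0 passed with DESeq2, against 0.00284%, 4.21% and 0% of all genes.

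Among the listed pathway genes, 6 calls after injury were made in endothelial cells, microglia, pericytes and Clusters 5 and 7, all in microglia. There 1.47% of all gene tests over the 3 times were called, and 2.3% at 1 d, where 3 of the listed genes were, so no support is drawn from the count. Of 61 listed genes tested there, the chemokine gene Ccl12 rose at 1 d (log2 3.42, adjusted p = 0.00345), while Ifngr1 (−1.22, adjusted p = 0.0439) and the GTPase gene Irgm2 (−2.78, adjusted p = 0.0472) fell. Ccl12 was at 163 ± 141 CPM uninjured, 1569 ± 815 at 1 d, 130.2 ± 42.4 at 7 d and 48.0 ± 21.2 at 14 d. Its highest level thus came at the time when Ifitm3 and Isg15 were highest. The secreted glycoprotein gene Lgals3bp rose at 7 d (2.29, adjusted p = 0.0346) and 14 d (1.95, adjusted p = 0.0352), and Ifngr1 was also called at 14 d (−1.01, adjusted p = 0.0485). The median of the 61 listed genes at 1 d was −0.20, against −0.02 for all genes. Of these calls 1 was left without WT uninjured replicate 1 or WT uninjured replicate 2, 2 without WT 1 d replicate 1, cKO 14 d replicate 1 or cKO uninjured replicate 2, 3 without WT 7 d replicate 1, cKO 14 d replicate 2 or cKO 1 d replicate 2, and there were 9 without WT 14 d replicate 1. With the replicate block H2-T23 was called as well, at 1 d (−2.14, adjusted p = 0.0483) and 14 d (−1.66, adjusted p = 0.0448).

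From 1 d to 14 d in microglia Ccl12 fell by 5.02 (adjusted p = 9.3e-06) and Ly6a by 2.83 (adjusted p = 0.0347), and the antigen presentation gene Tapbp rose by 1.01 (adjusted p = 0.0492). These are 3 of 61 listed genes where 4.68% of all genes were called, so no support is drawn from them as a list. Ly6a was highest in endothelial cells (1682 CPM over all times) and lay in the same direction as the endothelial marker Ly6c1 in this contrast, whose part was not tested. In endothelial cells the guanylate-binding protein gene Gbp5 rose over the same span (1.52, adjusted p = 0.0467, 1 call of 71 listed genes, where 22 of all 9186 genes were called). In Cluster 2 astrocytes Ly6a was called at 1 d (4.03, adjusted p = 0.0362) and 14 d against 1 d (−3.38, adjusted p = 0.0219), both against the single mouse at 1 d, so no support is drawn, where 6 and 24 of 4762 genes were called. In neurons Nlrc5, which drives class I antigen presentation genes, was called at 14 d (2.02, adjusted p = 0.0386), where 69 of 7059 genes were.

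The genes whose levels over the 17 clusters were most like each member's were read by Pearson's r of log2(CPM + 50), as a description in which the points share the libraries. For Isg15 they were Ier3 (r = 0.960), Klf2 (0.952) and Nfkbia (0.933), for Irf7 Ifi47 (0.978), Dusp1 (0.973) and Fosl2 (0.968), and for Ifit1 Oasl2 (0.937) and Gbp3 (0.934). For Bst2 they were Psme1 (0.961), Tgfb1 (0.945) and H2-K1 (0.941), for Ifi27l2a Ccl2 (0.968), Hacd4 (0.964) and Tgfbi (0.958), and for Ifitm3 Txn1 (0.914) and Vim (0.912). The highest r was 0.945 for Ifitm2 (S100a11), 0.860 for Ifit3 (Oasl2) and 0.850 for Ifi27 (Gm15542). Ifi27 was less like the other members, with r = 0.472 for the closest, Isg15. Among members, Ifitm2 with Ifitm3 had r = 0.871, Irf7 with Ifitm2 0.861 and Ifit1 with Ifit3 0.853 over clusters. Over the 15 mice in endothelial cells Ifitm2 with Ifitm3 had r = 0.878 and Ifit1 with Ifit3 had 0.842. Over the 14 mice in microglia Ifitm2 with Ifitm3 had 0.862 and Isg15 with Ifitm3 had 0.852. Genes outside the members were closer to each of these over mice. In endothelial cells they were Ppp1r14b for Ifitm2 (0.941), Eif1 for Ifitm3 (0.952), Ptgs2 for Ifit1 (0.857) and Gm49336 for Ifit3 (0.868). In microglia they were Snapc5 for Ifitm2 (0.873), Aes for Ifitm3 (0.914) and St3gal1 for Isg15 (0.932). No tie particular to the members is read from the values over mice. Mice share depth and time with each other, which also moves these values.

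In the mm10 annotation Ifitm2, Ifitm3 and Irf7 lie on chromosome 7 (Ifitm3, ENSMUSG00000025492.6, at chr7:141009586-141010770), Ifit1 and Ifit3 lie near each other on chromosome 19, and Ifi27 and Ifi27l2a are neighbours on chromosome 12. Isg15 (ENSMUSG00000035692.6) lies at chr4:156199424-156200818 and Bst2 (ENSMUSG00000046718.8) at chr8:71534255-71537456. Because 3′ reads are assigned to genes by sequence, paralogs were compared over their last 500 bases. Ifit3 shares 14.9% of its words of 50 bases with Ifit3b, Ifitm2 shares 4.43% with Ifitm3, and Ifi27 and Ifi27l2a share 0%.

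The interferon-stimulated response element was searched as GAAA, any 2 bases and GAAA again, on both strands, in the window from 250 bases before to 50 after each gene's start (RefSeq, GRCm38.p6). Of the 9 members 7 had a promoter in that table (not Ifi27l2a and Ifi27), and 6 of the 7 held the letters (not Irf7), as did 30 of 80 listed pathway genes and 1131 of all 32851 promoters (3.44%). The window is shown for Isg15 and Ifitm3, the members called at 1 d in microglia. It is also shown for Ifit1 and Ifit3, which had r = 0.842 over mice in endothelial cells. Capitals mark the motif, and overlapping matches run together. The first bases of the matches lie at −78, −72 and −66 from the start in Isg15, at 2 and 19 after it in Ifitm3, at −104 and −85 in Ifit1 and at −156 and −122 in Ifit3, both of which carry the letters on the reverse strand. The windows are chr4:156200769-156201068 (minus strand) for Isg15, chr7:141010695-141010994 (minus) for Ifitm3, chr19:34640639-34640938 (plus) for Ifit1 and chr19:34583279-34583578 (plus) for Ifit3. A match is a description of these letters and not a binding site.
Isg15: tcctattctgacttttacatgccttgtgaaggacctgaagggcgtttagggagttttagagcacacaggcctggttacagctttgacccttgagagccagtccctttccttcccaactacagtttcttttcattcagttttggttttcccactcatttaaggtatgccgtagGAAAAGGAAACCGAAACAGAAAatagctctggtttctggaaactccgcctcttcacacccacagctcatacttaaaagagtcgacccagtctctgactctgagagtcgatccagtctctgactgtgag
Ifitm3: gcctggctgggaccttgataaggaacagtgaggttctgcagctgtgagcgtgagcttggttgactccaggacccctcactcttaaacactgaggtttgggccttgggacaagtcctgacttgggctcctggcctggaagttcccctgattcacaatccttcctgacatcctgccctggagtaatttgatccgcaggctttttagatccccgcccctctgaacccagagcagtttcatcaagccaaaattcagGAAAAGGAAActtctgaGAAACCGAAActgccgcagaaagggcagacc
Ifit1: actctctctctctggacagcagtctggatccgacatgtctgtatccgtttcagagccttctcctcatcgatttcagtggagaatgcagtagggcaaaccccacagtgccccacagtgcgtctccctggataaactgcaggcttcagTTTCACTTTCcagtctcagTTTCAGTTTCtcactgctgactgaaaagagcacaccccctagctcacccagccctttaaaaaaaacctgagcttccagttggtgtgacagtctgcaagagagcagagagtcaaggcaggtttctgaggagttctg
Ifit3: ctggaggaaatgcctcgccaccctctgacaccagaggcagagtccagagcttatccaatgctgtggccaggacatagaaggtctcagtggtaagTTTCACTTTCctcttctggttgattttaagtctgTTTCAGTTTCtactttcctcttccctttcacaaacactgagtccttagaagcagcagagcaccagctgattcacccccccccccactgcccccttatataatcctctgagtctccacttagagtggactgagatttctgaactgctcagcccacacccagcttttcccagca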

How the data were processed

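The authors made 10x 3′ libraries, counted reads on the GRCm38 (mm10) build with Cell Ranger and grouped cells in R 4.1.2 with Seurat, per the labels. They deposited raw UMI counts for 55487 genes in 18203 cells, without normalization, and a cell table whose deposited columns include the percent of mitochondrial UMIs (at most 24.992%; the fewest genes of a cell were 201). The authors' clusters were used as given, and 6 columns of the cell table (such as the percent of haemoglobin UMIs) were not used. Doublets were not called or removed here.

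The members and the lists of pathway and marker genes were chosen with earlier results of these data known. UMIs were summed per mouse and class (mice with at least 50 cells in all and 10 of the class) and tested with edgeR 4.0.16 (TMM, filterByExpr, quasi-likelihood fit of time and genotype) in R 4.3.3. Injury by genotype was tested with 8 group means. Benjamini-Hochberg adjustment ran over all genes tested in each class and contrast, with a threshold of 0.05 and two-sided tests, and the fits were tested on simulated data. DESeq2 1.42.0 was an alternative. Microglia are Clusters 6 and 10 summed. Leaving out the mice whose cell names differ (in all mice, and in injured mice only for genotype), and fitting Cluster 6 and Cluster 10 each alone, were chosen after the data were seen.

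The rule was to name all 9 members in each class; those without a value over time in a class were below the filter on low counts there or did not pass. Of the pathway list each called gene was named, at most 10 per class and contrast. For likeness the 3 genes with the highest r were sought among genes that reach 20 CPM in their highest cluster. Further values came from scipy 1.17.1, pandas 2.3.3 and numpy 2.4.6 under Python 3.11.15, and figures from matplotlib 3.10.9.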

Additional observations from a re-analysis of the deposited data

How the results depend on the processing

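The 4 differences called between times kept their direction under every alternative tried: Isg15 in microglia at 1 d lost its call in 7 of 25 (adjusted p up to 0.271), Ifitm3 in microglia ranged from 2.66 to 3.80 at 1 d (adjusted p up to 0.361) and from −2.66 to −1.42 at 14 d against 1 d (adjusted p up to 0.543), and Ifitm3 in Cluster 2 astrocytes, where 1 mouse stood for 1 d and no support is drawn, from −4.15 to −2.67 (adjusted p up to 1.00). Members called after injury in microglia, 2 as reported, numbered 11 with no filter on low counts, 4 with DESeq2, 0 with the conditions of the cell names, 0 with 8 group means, 1 without the mice whose cell names differ, 1 in Cluster 6 alone and 0 in Cluster 10 alone, and 0 to 3 leaving out 1 mouse. For 14 d against 1 d the 2 calls became 4 with no filter, 1 with at least 30 cells, 4 without the shallow libraries (which left 1 mouse at 1 d, so no support is drawn), 0 with the conditions of the cell names, 0 without the mice whose cell names differ and 1 with 8 group means, and 0 to 5 leaving out 1 mouse. Endothelial calls were 0 to 1 leaving out 1 mouse, being 1 (Bst2 at 14 d) without WT uninjured replicate 1. For cKO against WT the count was 1 with no filter and 1 in injured mice only (0 there without the mice whose cell names differ). Pathway calls, 6 as reported, were 27 with no filter, 12 with DESeq2, 3 without the shallow libraries, 0 with the conditions of the cell names, 1 without the mice whose cell names differ and 1 with 8 group means, and 1 to 9 leaving out 1 mouse. With the replicate number as a block, which pairs mice of different conditions, microglia had 3 calls (Ifitm2 gained), 14 d against 1 d 4 (Ifitm2 gained in microglia and endothelial cells) and the pathway list 8 (H2-T23 gained at 1 d and 14 d). The replicate number equals the deposited batch in all 16 mice, so batch cannot be told apart from it. The correlation of the mice's deviations, over pairs of conditions, had a median of 0.0842 in endothelial cells (10 of 21 pairs above 0.1), 0.0495 in microglia and 0.116 in Cluster 5. Order among the highest clusters was not stable, and the cause was not tested in any of these cases: with at least 30 cells, myeloid less immune Ifi27l2a was −375.5 CPM (−262 without the shallow libraries), Cluster 10 less immune Bst2 −28.5 (−16.7 thinned), myeloid less red blood cell Isg15 −31.0 and myeloid less endothelial Irf7 −14.4, and fibroblast less OPC Ifi27 was −35.1 thinned. At that setting of 30 cells, only cKO 7 d replicate 2 (33 cells) stood for myeloid cells. Only cKO 1 d replicate 2 (30 cells) stood for red blood cells, so these differences set single mice against other mice. The interaction could not be fitted without the shallow libraries or without WT 1 d replicate 1, since not all 8 conditions then had a mouse. Few UMIs per mouse limit Ifit1, Ifit3 and Irf7 outside endothelial cells.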
